A study of Mus musculus with 15 samples.

Results

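Glycolysis turns glucose into pyruvate and lactate, and many of its enzymes belong to the genes that cells switch on when oxygen is scarce. Here 39 such genes were followed, covering glucose and lactate transporters, the enzymes between them, the oxygen-sensing pathway and well-known targets of the hypoxia-inducible factors. They were taken by symbol from a list of 39, and all 39 were found among the 17271 genes of the deposited expression table. The RNA came from 15 mouse mammary tumours, all of strain Balbc and genotype p53-NULL, so loss of p53 is common to every group. Each belongs to 1 of 4 tumour models: 2151R with 4 samples, 2208L with 8, 2225L with 2 and T11 with a single one. The titles mark 4 of the 2208L samples as PBS or pbs, 3 as 3day nt and 1 as ROSEN. All PBS titles also begin with a DH code and all 3day nt titles with a KM code. In 2151R the titles add a number (replicate 1), 53ca (replicate 2), NT2 (replicate 3) and NT (replicate 4), and in 2225L they add T-Vivo (replicate 1) and ROSEN (replicate 2). What these marks stand for, the age of the mice, and whether samples of a model came from separate mice are not given in the sources used here, so p-values measure only the spread between these samples.

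Each value is a log2 expression level centred per gene on a median that the authors took over an unstated set of samples. A difference of 1 between samples is therefore a 2-fold difference, while levels of different genes cannot be set against each other. A gene is called higher or lower where limma's moderated test, run over all genes, gave a Benjamini-Hochberg adjusted p-value under 0.05. No gene of the 39 had the same value in 2 samples, as some genes of the table do. Sequencing depth is unknown. Tumour pieces hold several cell types, so fewer cells of a type and less RNA per cell cannot be told apart. Library numbers of the 2151R, PBS and 3day nt samples fall in separate ranges, so a group cannot be told apart from its range of library numbers. In the same way, PBS and 3day nt cannot be told apart from the DH and KM codes. The median of 10 epithelial marker genes ran from 0.24 to 1.17 in 2208L and was 0.91 and 1.28 in 2225L, but ran from -6.22 to -4.96 in 2151R and was -9.85 in T11. Skeletal muscle markers, 18 genes, had a median of 6.41 in replicate 3 of 2151R and of 9.86 and 9.46 in replicates 6 and 8 of 2208L, against -2.93 to 2.57 in the other 12 samples.

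As background, the factors HIF-1alpha and HIF-2alpha (genes Hif1a and Epas1) are made all the time and destroyed when oxygen is present, because the prolyl hydroxylases encoded by Egln1 and Egln3 mark them for degradation. At low oxygen they persist, pair with ARNT and bind short DNA stretches with the core ACGTG or GCGTG. Their targets raise glucose uptake, glycolysis and lactate export, hold pyruvate back from oxidation in mitochondria, buffer acid and change collagen. In breast tumours these genes are widely used as marks of poorly perfused regions.

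**Figure D1:**
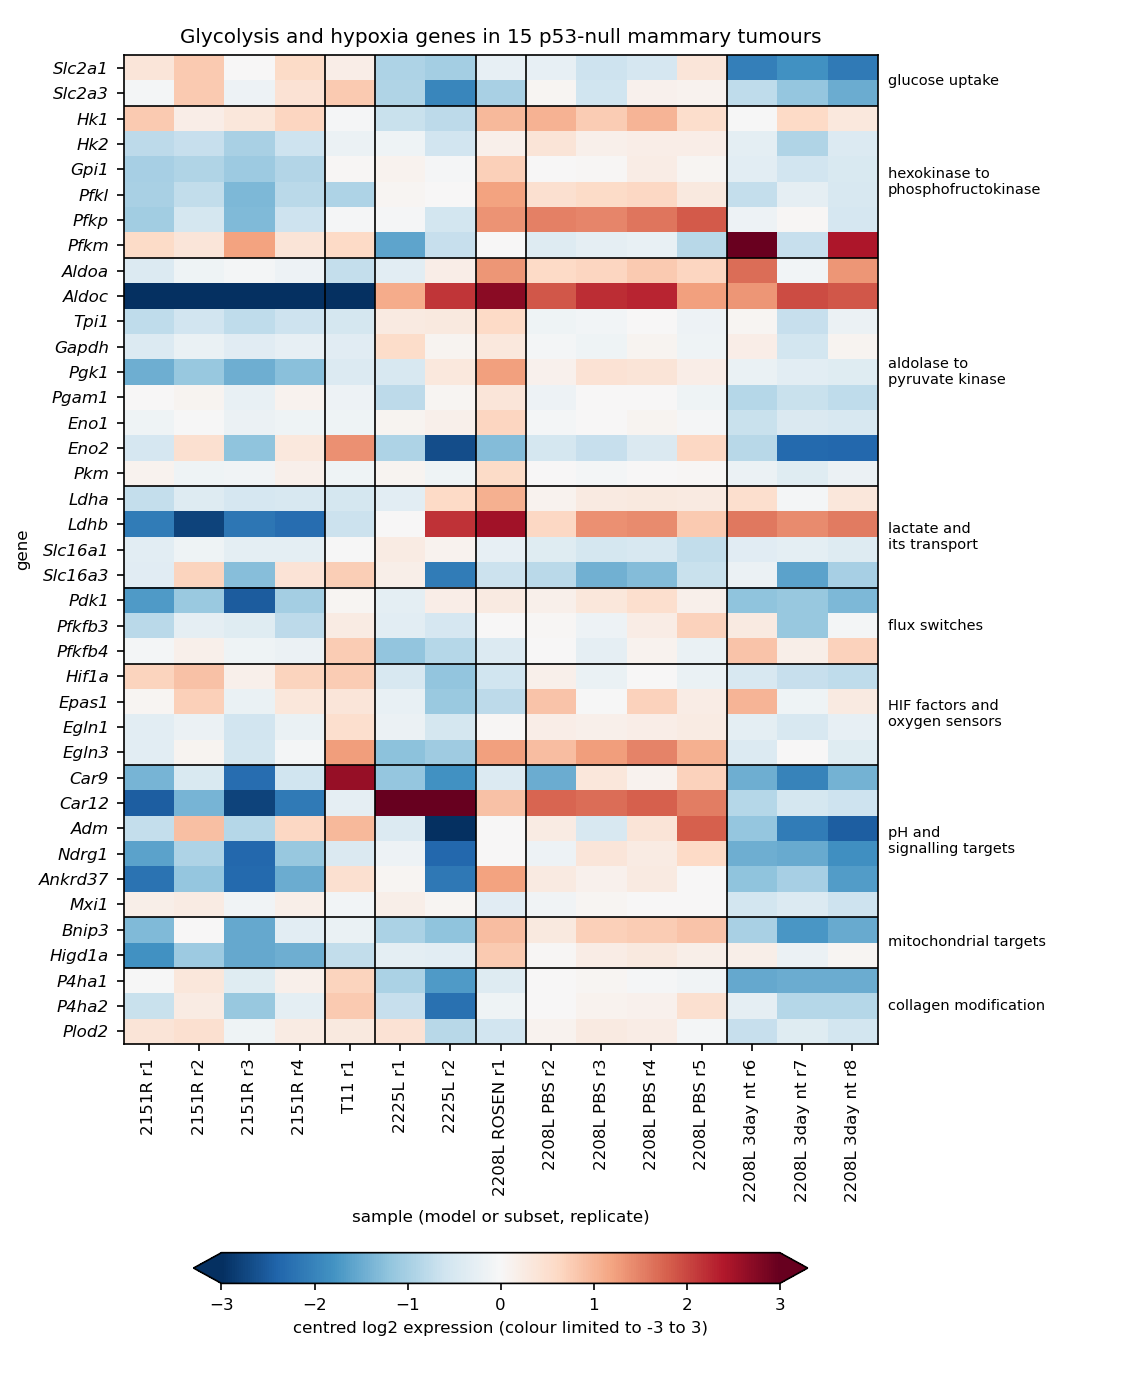
Centred log2 expression (colour, limited to -3 to 3) of the 39 genes (rows, in groups by role) in the 15 tumours (columns, by model or subset and replicate). The 3day nt samples of 2208L are blue in most hypoxia rows where PBS samples are pale or red, and Aldoc and Ldhb are blue in all 4 samples of 2151R.

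Within the 2208L model, the samples titled PBS and 3day nt could be compared. Comparing the 4 PBS samples with the 3 of 3day nt, limma with adjustment over all genes called 23 of the 39 genes higher in PBS and 1 lower. Of all genes tested, 17.4% were called higher and 16.5% lower in this comparison. The median difference (PBS minus 3day nt) was 0.57 over the 39 genes and -0.05 over all genes. All 24 called genes had groups that did not overlap. Without overlap, 24 of the 39 lay higher and 2 lower, beside 21% and 23.8% of all genes.

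Both glucose transporters were among them. Slc2a1, the widespread glucose importer GLUT1, was -0.25, -0.62, -0.51 and 0.37 in the PBS samples and -2.05, -1.82 and -2.13 in the 3day nt samples. Every 3day nt sample lay below every PBS sample, by 1.75 on average (SE 0.25, limma adjusted p 0.00551), which is a 3.36-fold lower level in 3day nt. Slc2a3, the high-affinity GLUT3, differed by 1.05 (SE 0.25, limma adjusted p 0.0204).

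In the upper part of glycolysis 4 of 6 genes were higher in PBS. Pfkp, a phosphofructokinase subunit of the committed step, was 1.52, 1.46, 1.62 and 1.84 in PBS and -0.15, 0.05 and -0.49 in 3day nt (difference 1.81, SE 0.17, limma adjusted p 0.00224). Pfkl, the liver-type subunit, differed by 0.97, Hk2, the inducible hexokinase, by 0.77 and Gpi1, glucose-6-phosphate isomerase, by 0.52. Hk1, the constitutive hexokinase, differed by 0.54 and was not called (limma adjusted p 0.0723). Pfkm, the muscle-type subunit, went the other way and was not called: it was 2.96 and 2.42 in replicates 6 and 8, the samples with the high muscle markers, and -0.69 in replicate 7.

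Between aldolase and pyruvate kinase 4 of 9 genes were higher in PBS, with smaller differences. Pgam1 (phosphoglycerate mutase) differed by 0.69, Pgk1 (phosphoglycerate kinase) by 0.58 and Eno1 (enolase) by 0.52. Eno2, the enolase isoform best known from neurons, differed by 1.58 (SE 0.48, limma adjusted p 0.0434). Its call was lost in 10 of the 17 alternatives tried. Gapdh (0.03), Aldoc (0.19), Tpi1 (0.18), Pkm (0.23) and Aldoa (-0.31) were not called, although for Pkm, the main pyruvate kinase, the 2 subsets did not overlap. Gapdh, Pgk1, Pgam1, Eno1, Tpi1, Aldoa and Ldha have near-identical copies elsewhere in the mouse genome, and how reads were shared among copies is not given in the sources used here, so small differences in these genes are uncertain.

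None of the 4 genes for lactate and its transport was called, that is 0 of 4. Ldha, which makes lactate from pyruvate and is a classic hypoxia target, was 0.10, 0.27, 0.28 and 0.26 in PBS and 0.49, -0.06 and 0.35 in 3day nt (difference -0.03, limma adjusted p 0.884). The lactate carriers Slc16a1 (MCT1, -0.18) and Slc16a3 (MCT4, -0.13) were not called either. Ldhb, the isoform that favours pyruvate, lay lower in every PBS sample, but the difference of -0.47 was not called (limma adjusted p 0.145).

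Of the enzymes that direct the flux, Pdk1 is a kinase that holds pyruvate back from oxidation in mitochondria. It was 0.16, 0.35, 0.50 and 0.14 in PBS and -1.22, -1.13 and -1.34 in 3day nt (difference 1.52, SE 0.13, limma adjusted p 0.00189). Pfkfb4, which sets the level of a phosphofructokinase activator, was the 1 gene called lower in PBS (difference -0.67, SE 0.19, limma adjusted p 0.0366). Its relative Pfkfb3 differed by 0.51 and was not called.

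In the oxygen-sensing pathway itself, Hif1a differed by 0.57 (limma adjusted p 0.0216), Egln1 by 0.54 and Egln3 by 1.45. Egln3, an inducible hydroxylase that is also a HIF target, was 0.92, 1.25, 1.5 and 1.07 in PBS against -0.42, 0 and -0.37 in 3day nt. Epas1 was not called (difference 0.05).

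Targets with roles in acidity and signalling showed the largest differences, with 5 of 6 called. Car12, a membrane carbonic anhydrase, was 1.74, 1.67, 1.79 and 1.54 in PBS and -0.84, -0.53 and -0.61 in 3day nt (difference 2.35, SE 0.12, limma adjusted p 0.000398). These sets lay apart by more than the range within either of them. Adm, the vasodilator adrenomedullin, differed by 2.40 (SE 0.57, limma adjusted p 0.0202), but spread from -0.49 to 1.79 in PBS. Ndrg1, a stress-responsive protein, differed by 1.87, Ankrd37, a small HIF target, by 1.45, and Mxi1, a MYC antagonist, by 0.52. Car9, the carbonic anhydrase most used as a hypoxia marker, was -1.48, 0.35, 0.12 and 0.70 in PBS and -1.47, -2.0 and -1.41 in 3day nt. The difference in Car9 (1.55, SE 0.52) was not called (limma adjusted p 0.0575). Replicate 2 lay among the 3day nt samples and the other 3 PBS samples above them.

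Bnip3, which drives removal of mitochondria, was 0.30, 0.71, 0.76 and 0.85 in PBS and -0.96, -1.74 and -1.52 in 3day nt. The difference was 2.06 (SE 0.23, limma adjusted p 0.00317), or 4.18-fold, and no sample crossed over. Higd1a, a respiratory chain factor, differed by 0.16 and was not called. All 3 collagen-modifying genes were higher in PBS. P4ha1, the catalytic subunit of collagen prolyl 4-hydroxylase, was 0, 0.07, -0.04 and -0.10 in PBS and -1.53, -1.49 and -1.49 in 3day nt (difference 1.49, SE 0.09, limma adjusted p 0.000906). Its relative P4ha2 differed by 0.84 and Plod2, a collagen lysyl hydroxylase, by 0.67.

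**Figure D2:**
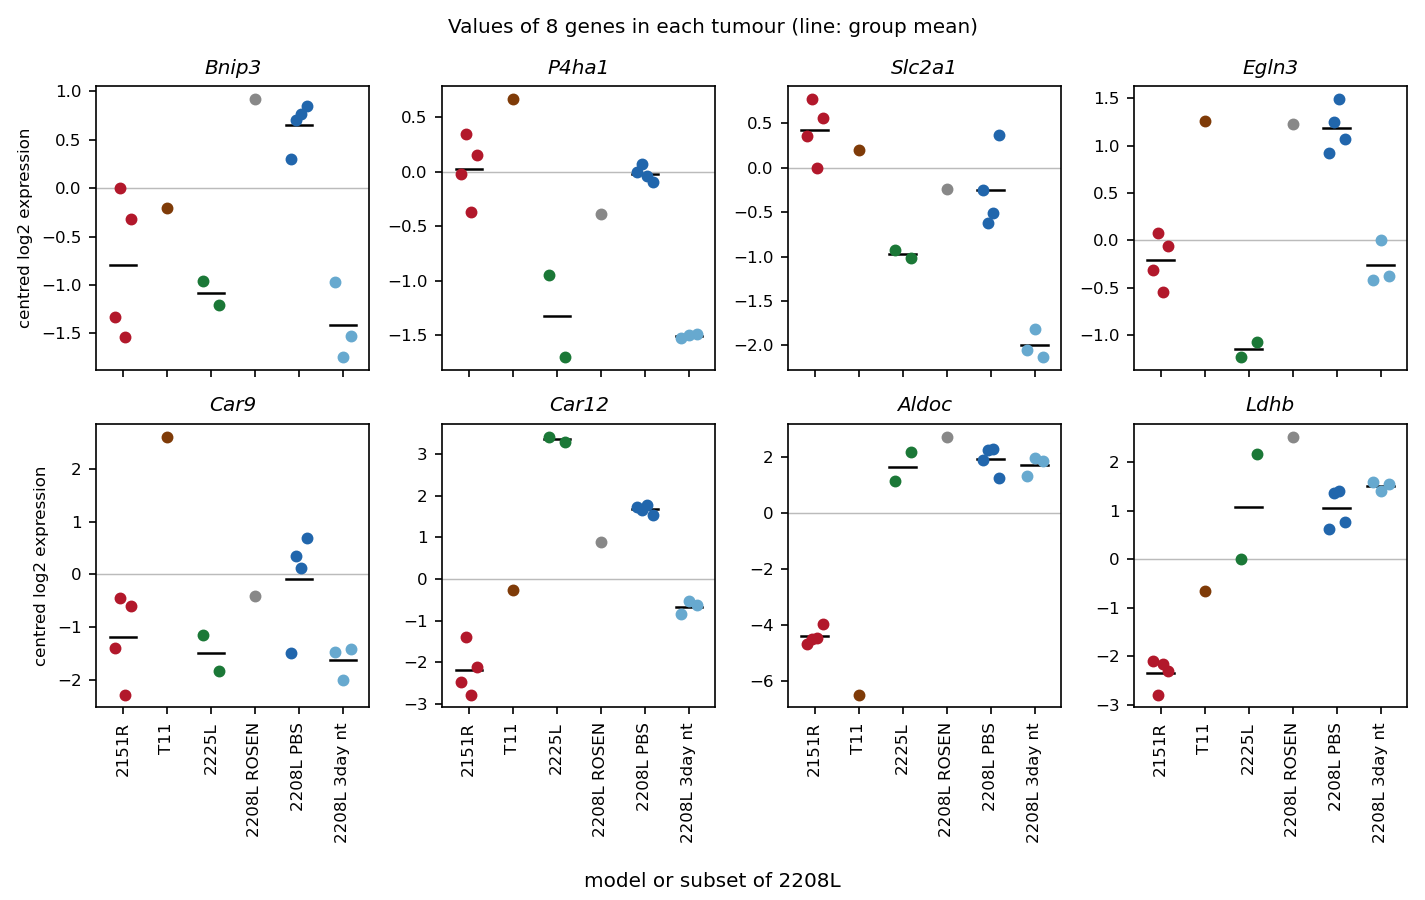
Centred log2 expression of 8 genes in each tumour, 1 point per sample, by model or subset of 2208L, with a line at the mean of each group of 2 or more samples. For Bnip3, P4ha1, Slc2a1, Egln3 and Car12 the PBS and 3day nt samples do not overlap, Car9 is highest in T11 (2.61), and Aldoc and Ldhb are lowest in 2151R and T11.

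Without replicate 8 of 2208L, 12 of the 39 genes were called higher and 0 lower. Of all genes, 1362 were then called higher and 1017 lower, compared with 3007 and 2857 with it. The call of Pfkfb4 was also lost without replicate 2, 3, 5 or 6. Without replicate 7 there were 3 genes called lower, Pfkfb4, Pfkm and Aldoa, where 3111 of all genes were lower. Replicates 6 and 8 carried the muscle markers, of which 2 of 18 were called lower in PBS. With both left out, 4 PBS samples faced replicate 7 alone, assumed to vary like the PBS samples, so calls are not given. Car12 then differed by 2.22, P4ha1 by 1.47 and Pfkp by 1.57. With the muscle marker mean as a covariate, 3 of the 39 genes were called, Car12, P4ha1 and Pfkp, all higher in PBS. Of all genes, that fit called 122 higher and 57 lower, compared with 3007 and 2857 without the covariate. The median difference over the 39 genes was 0.57 with all samples, 0.64 without replicates 6 and 8, and 0.60 with the covariate. Replicate 7, whose muscle marker median was 1.02, itself lay below all 4 PBS samples in 33 of the 39 genes, where 29.6% of all genes did. The differences of Pfkm and Aldoa changed sign: they were -2.0 and -0.31 with all samples and 0.26 and 0.75 without replicates 6 and 8. Aldoa was 1.67 and 1.34 in replicates 6 and 8. It was also 1.32 in replicate 1 of 2208L, where the muscle marker median was -2.93. The part of muscle in these 2 genes was not tested. Other cell type lists also differed between PBS and 3day nt. Of 8 neutrophil markers 4 were higher in PBS (median by sample 0.71 to 2.71 against -0.25 to 0.73), and of 10 T cell markers 4 were lower (-1.91 to 0.06 against 0.04 to 0.78). Of 10 adipocyte markers 2 were lower (-3.61 to 2.78 against 2.65 to 3.34). In the remaining lists 1 of 11 macrophage markers was higher and 1 lower, 1 of 10 epithelial markers higher and 2 lower, 1 of 10 endothelial markers higher, and 1 each of 10 fibroblast and 10 proliferation genes lower, with 0 of 6 red cell genes called. The part of these cell types in the differences was not tested.

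**Figure D3:**
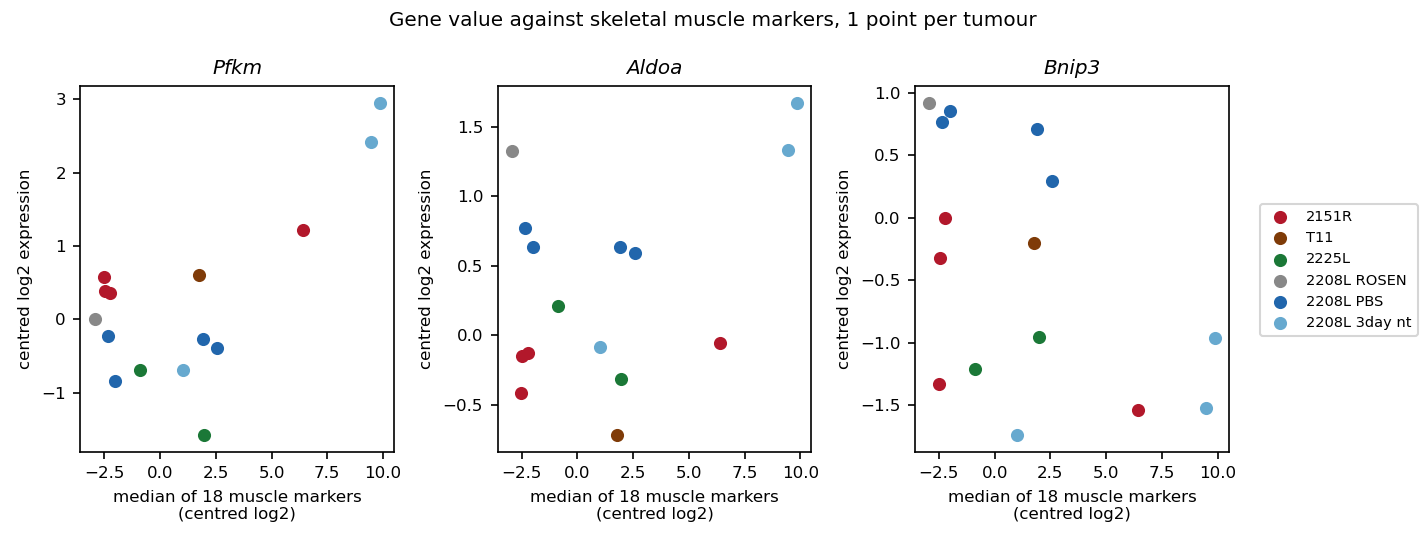
Centred log2 expression of Pfkm, Aldoa and Bnip3 (vertical axes) against the median of 18 skeletal muscle markers (horizontal axes), 1 point per tumour, coloured by model or subset. Pfkm is highest in the 2 samples of 2208L 3day nt with marker medians of 9.86 and 9.46, while Bnip3 is lowest in replicate 7 of 2208L, where the marker median was 1.02.

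The pathway lists beyond the 39 genes were counted in the same way. Of 59 further HIF target genes in the table, 25 were higher and 1 lower in PBS, with a median difference of 0.42 beside -0.05 over all genes. The largest differences were Nos2, inducible nitric oxide synthase (2.27, SE 0.56, limma adjusted p 0.0231), and Cavin1, a caveolar coat protein (-1.59, SE 0.45). Vegfa, the vessel growth factor, named here outside the rule as a standard target, differed by 1.68 (SE 0.26, limma adjusted p 0.00649). Of 23 other glycolysis and sugar transport genes only 1 was higher (Pfkfb2, 0.85) and 1 lower (Pfkfb1, -1.48). The list for pyruvate entry to mitochondria mixes carriers with the kinases Pdk2 and Pdk3, relatives of Pdk1. Of its 12 genes 0 were higher and 5 lower in PBS. Among them was Mpc1, a subunit of the mitochondrial pyruvate carrier, at -1.48 (SE 0.43, limma adjusted p 0.0392). Mpc1 ran from -1.40 to -0.73 in PBS and was -0.56 in replicate 7 of 3day nt. It was 0.95 in replicate 8 and higher still in replicate 6, the samples with the high muscle markers. The part of muscle in the differences of this list was not tested. Of 13 genes of the pentose phosphate and serine branches 1 was higher (H6pd, 0.77) and 5 lower, with transketolase, Tkt, at -0.84. Of 15 gluconeogenesis and glycogen genes 1 was higher (Gbe1, the glycogen branching enzyme, 0.67) and 0 lower. Among 18 regulators of the pathway 6 were higher and 5 lower, led by Kdm5c (0.92) and Rbx1 (-0.99).

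The start regions of these genes are shown as a description. RefSeq promoters (GRCm38.p6) were matched for 35 of the 39 genes, and the 250 bases before each start were searched on both strands for ACGTG and GCGTG, the core of the hypoxia response element. The palindrome CACGTG holds ACGTG on both strands and is counted on each. ACGTG was found for 20 of the 35 genes (57.1%), compared with 24.2% of 12100 genes of the table with a RefSeq promoter. Either motif was found for 31 of 35 (88.6%), compared with 58.6%. A gene was counted if any of its promoters held a match, and the 35 genes had 50 promoters while the 12100 had 15382. The 39 genes were listed in part as known HIF targets, and called genes were not compared with uncalled ones. A match of 5 letters is a description and not a binding site. Below, 5 genes that were higher in PBS are followed by Ldha, which was not called, all 5′ to 3′ on the strand of the gene, with the matches in capitals.

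Bnip3 (chr7:138909507-138909756, minus strand): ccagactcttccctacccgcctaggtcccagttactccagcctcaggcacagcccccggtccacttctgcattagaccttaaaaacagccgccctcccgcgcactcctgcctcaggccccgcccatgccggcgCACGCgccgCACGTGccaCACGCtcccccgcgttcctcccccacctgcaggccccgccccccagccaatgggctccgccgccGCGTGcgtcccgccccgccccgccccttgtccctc
P4ha1 (chr10:59323046-59323295, plus strand): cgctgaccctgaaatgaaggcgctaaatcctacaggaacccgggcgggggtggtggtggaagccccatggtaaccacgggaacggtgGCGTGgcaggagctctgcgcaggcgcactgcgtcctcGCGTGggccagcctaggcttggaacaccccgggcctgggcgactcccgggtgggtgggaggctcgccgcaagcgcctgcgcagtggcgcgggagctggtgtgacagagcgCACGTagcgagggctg
Slc2a1 (chr4:119108495-119108744, plus strand): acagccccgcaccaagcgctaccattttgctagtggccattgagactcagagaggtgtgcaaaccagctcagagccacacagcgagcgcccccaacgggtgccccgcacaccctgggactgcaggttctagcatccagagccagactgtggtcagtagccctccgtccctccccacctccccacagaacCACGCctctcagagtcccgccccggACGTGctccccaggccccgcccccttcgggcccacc
Egln3 (chr12:54203875-54204124, minus strand): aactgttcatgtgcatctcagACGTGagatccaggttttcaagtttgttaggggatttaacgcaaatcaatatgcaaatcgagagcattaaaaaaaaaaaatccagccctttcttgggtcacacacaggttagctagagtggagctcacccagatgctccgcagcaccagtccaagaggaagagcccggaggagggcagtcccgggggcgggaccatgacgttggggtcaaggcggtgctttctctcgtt
Car12 (chr9:66713436-66713685, plus strand): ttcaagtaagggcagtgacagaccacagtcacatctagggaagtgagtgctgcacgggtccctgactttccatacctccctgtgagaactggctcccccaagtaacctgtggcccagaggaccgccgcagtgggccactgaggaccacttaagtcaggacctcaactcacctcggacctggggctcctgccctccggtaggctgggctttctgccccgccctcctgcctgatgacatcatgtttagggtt
Ldha, first of 2 starts (chr7:46845554-46845803, plus strand): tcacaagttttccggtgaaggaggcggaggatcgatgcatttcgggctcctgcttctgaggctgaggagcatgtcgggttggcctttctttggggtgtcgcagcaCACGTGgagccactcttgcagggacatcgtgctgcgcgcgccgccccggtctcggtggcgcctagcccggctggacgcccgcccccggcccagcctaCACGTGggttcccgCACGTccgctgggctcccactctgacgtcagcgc

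Bnip3 held 5 matches, of which 1 CACGTG palindrome made 2, and the stretch of Ldha held 5, of which 2 such palindromes made 4. P4ha1 held 3, Slc2a1 held 2 and Egln3 held 1, 229 bases before its start. Car12, the gene with the lowest adjusted p of the 39 in this comparison, held 0 in this window. The starts used are those of the RefSeq promoters, which can differ from the outermost start of the gene. By RefSeq gene positions Car12 starts at 66712296 and Ldha at 46842274, so their windows lie inside the gene. The bases before those gene starts were not searched. The window of P4ha1 runs across its gene start (59323197).

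Setting the 4 samples of 2151R beside the 8 of 2208L addresses how these genes differ from one tumour model to another. By limma, 2 of the 39 genes were higher and 14 lower in 2151R, where 26.1% of all genes were called higher and 22.7% lower. The median difference was -0.29 over the 39 and 0.10 over all genes. The groups did not overlap for 0 genes in the higher and 9 in the lower direction, beside 20.6% and 18.2% of all genes. Because 2208L itself was split, each difference was also computed against the PBS and the 3day nt samples alone. Against PBS alone 2 of the 39 genes were called higher (Hif1a and Pfkm) and 19 lower, and against 3day nt alone 7 higher and 9 lower. Of all 17271 genes, 4425 were called higher and 3696 lower against PBS alone, and 4423 and 4263 against 3day nt alone.

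The largest were in paired isoenzymes. Aldoc, the aldolase isoform best known from brain, was -4.67, -4.49, -4.46 and -3.98 in 2151R, while the 8 samples of 2208L ran from 1.23 over a median of 1.91 to 2.70. No sample came near the other group, and the difference of -6.33 (SE 0.28, limma adjusted p 8.23e-10) is a level 80.4-fold lower in 2151R. Ldhb was -2.10, -2.79, -2.17 and -2.29 in 2151R and ran from 0.63 over 1.41 to 2.52 in 2208L (difference -3.74, SE 0.39, limma adjusted p 3.52e-06). Their partners differed less: Aldoa, the widespread aldolase, by -1.05 (SE 0.28) and Ldha by -0.87 (SE 0.21). For Aldoc and Ldhb the subsets of 2208L gave much the same difference, -6.30 and -3.38 against PBS and -6.11 and -3.85 against 3day nt.

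Higd1a was -1.82, -1.08, -1.54 and -1.46 in 2151R and ran from -0.17 over 0.18 to 0.79 in 2208L (difference -1.68, SE 0.18, limma adjusted p 4.41e-06). Pgk1 differed by -1.52 (SE 0.27, limma adjusted p 0.000431), with 2151R at -1.47, -1.13, -1.47 and -1.25. Aldoc, Ldhb, Higd1a, Pgk1 and Car12 were called lower in 2151R under each alternative tried for this comparison.

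In the upper part of glycolysis Pfkp (-1.78), Pfkl (-1.19), Gpi1 (-0.93) and Hk2 (-0.69) were lower in 2151R, and Hk1 (-0.16) and Pfkm (0.26) were not called. Tpi1, triose phosphate isomerase, was lower by a difference of -0.60. Against the PBS samples alone Pfkp differed by -2.49, and against the 3day nt samples alone by -0.68, which was not called (limma adjusted p 0.0549). Pfkl, Hk2, Tpi1, Pdk1 and Ankrd37 likewise were called against PBS and not against 3day nt.

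The 2 genes called higher in 2151R were Slc2a1 and Hif1a. Slc2a3, the other glucose transporter, differed by 0.83 and was not called (limma adjusted p 0.0595). Slc2a1 was 0.35, 0.78, 0 and 0.56 in 2151R and ran from -2.13 over -0.56 to 0.37 in 2208L. The difference was 1.33 (SE 0.45, limma adjusted p 0.0254), and the groups overlapped: against PBS alone it was 0.67 and not called (limma adjusted p 0.0502), and against 3day nt alone it was 2.42. Without replicate 1, 2 or 4 of 2151R the call was lost, leaving 1 gene called higher, and without replicate 5 of 2208L there were 4. Of all genes, 3544, 4145 and 3750 were higher without those replicates of 2151R. Without that of 2208L 4351 were higher, compared with 4508 with all samples. Hif1a was 0.67, 0.88, 0.15 and 0.67 in 2151R and ran from -0.75 over -0.34 to 0.15 in 2208L (difference 0.94, SE 0.21, limma adjusted p 0.00261), and was called against each subset alone. Epas1 (-0.04), Egln1 (-0.29) and Egln3 (-0.86) were not called. Against PBS alone Egln1 (-0.51) and Egln3 (-1.40) were called lower, and against 3day nt alone their differences were 0.03 and 0.05 and were not called.

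Of the targets, Car12 was -2.48, -1.40, -2.78 and -2.11 in 2151R, below every sample of 2208L (difference -2.90, SE 0.56, limma adjusted p 0.000793). Pdk1 (-1.30, SE 0.42) and Ankrd37 (-1.55, SE 0.54) were lower in 2151R and lost their calls without replicate 1 or 3 of 2151R. Hk2 lost its call under the same conditions. Bnip3 (-0.71), Ndrg1 (-1.04), Car9 (-0.48), Adm (0.46), P4ha1 (0.65), P4ha2 (-0.29) and Plod2 (0.45) were not called. Against PBS alone Bnip3 differed by -1.45 and was called, and against 3day nt alone it differed by 0.61 and was not. P4ha1 differed by 0.05 against PBS, which was not called, and by 1.53 against 3day nt, which was.

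Marker lists moved with this comparison as well. Of 10 epithelial markers 9 were lower in 2151R and 1 was higher (Krt19, 3.61), and of 10 endothelial markers 6 were higher and 1 was lower (Eng, -1.01). Higher were also 7 of 11 macrophage markers, 8 of 10 proliferation genes, 3 of 10 fibroblast, 2 of 10 T cell and 2 of 10 adipocyte markers, with 0 lower in these lists. Of 8 neutrophil markers 1 was higher and 3 were lower, of 18 muscle markers 1 was lower, and 0 of 6 red cell genes were called. Their part in the differences was not tested. Without the 3 samples with high muscle markers 4 of the 39 genes were higher and 13 lower, compared with 2 and 14 with them. Of all genes, 4072 were higher and 3310 lower in that fit, compared with 4508 and 3926.

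**Figure D4:**
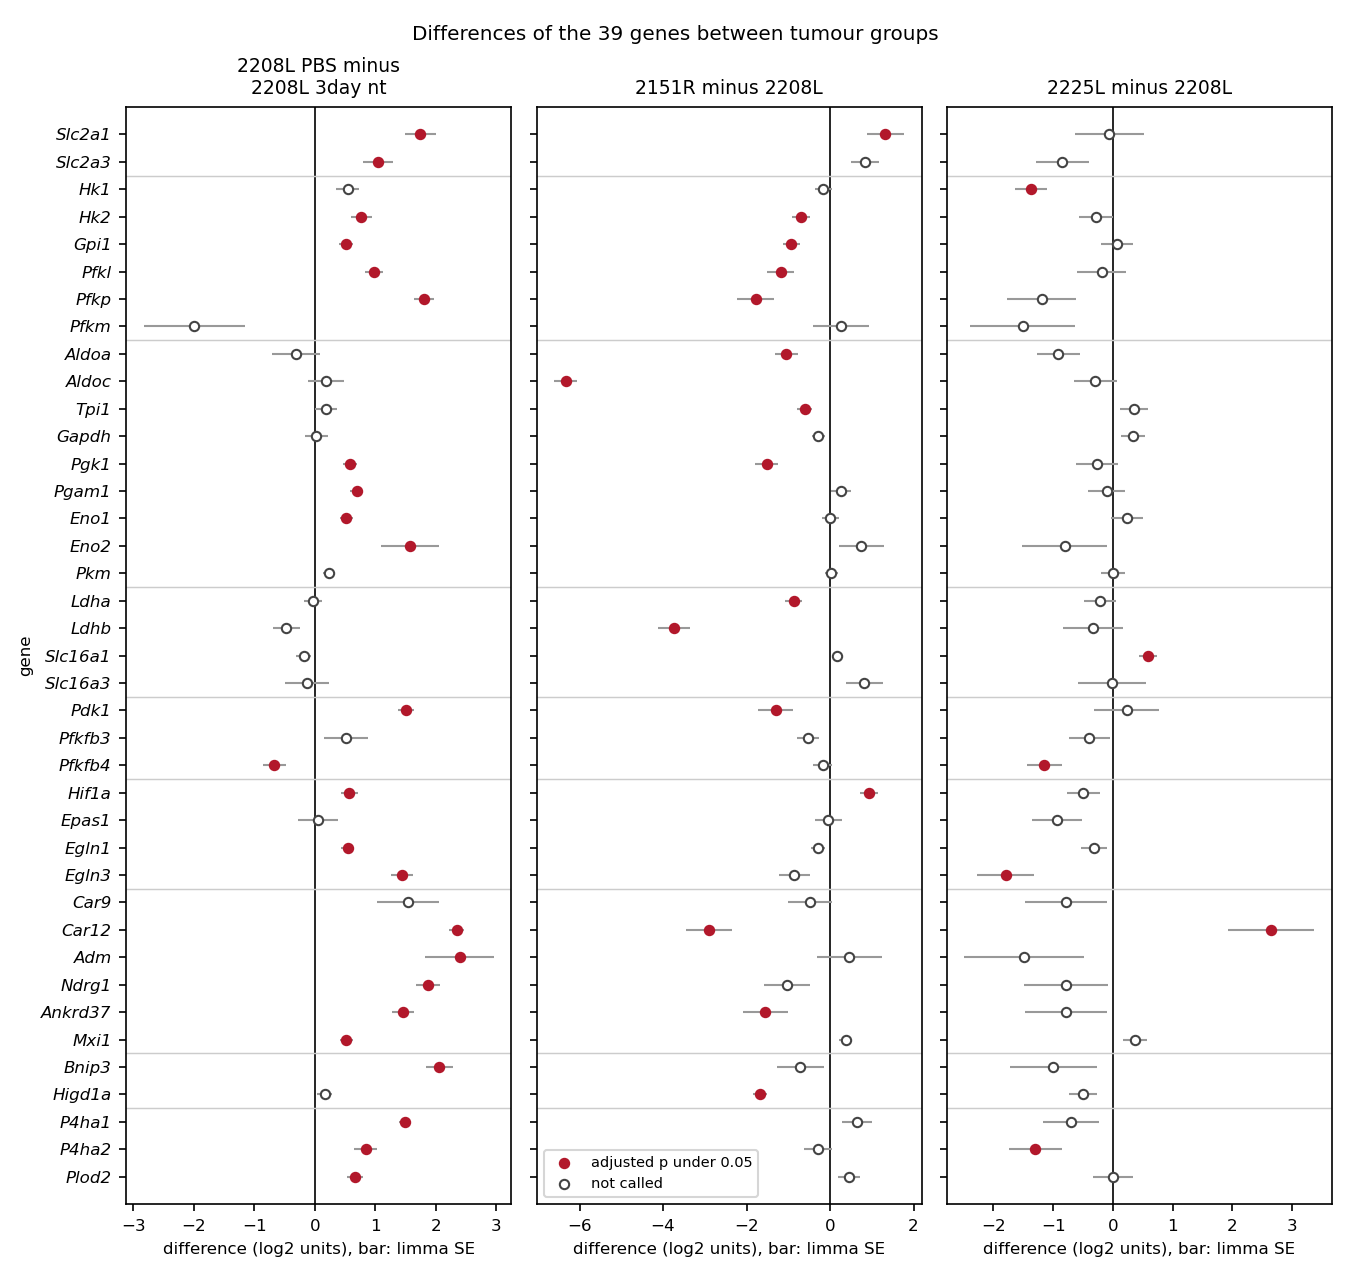
Difference of each of the 39 genes (log2 units, with limma's SE as the bar) for 2208L PBS minus 3day nt, 2151R minus 2208L and 2225L minus 2208L, each panel with its own horizontal scale. Filled points are genes with an adjusted p-value under 0.05: 24 genes in the first panel, 16 in the second and 6 in the third.

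In the other pathway lists, 10 of 59 further HIF targets were higher and 24 lower in 2151R, with a median difference of -0.35 beside 0.10 over all genes. The extremes were Stc1, the hormone stanniocalcin (3.21, SE 0.56), and Trf, transferrin (-5.67, SE 0.49, limma adjusted p 6.1e-07). Among 18 regulators 4 were higher and 6 lower. Arnt2, a relative of the HIF partner ARNT, was -4.85, -4.74, -5.46 and -4.75 in 2151R and 0.12 to 1.17 in 2208L (difference -5.65, SE 0.24, limma adjusted p 5.72e-10). Ep300, a coactivator of the factor, was higher by 1.30. Of 23 other glycolysis and transport genes 6 were higher and 6 lower, led by the carrier Slc16a7 (2.48) and the transporter Slc2a10 (-2.21). The pyruvate entry list, which includes Pdk2 and Pdk3, had 0 higher and 6 lower of 12, with Mpc2 at -1.83. Gluconeogenesis and glycogen had 1 higher (Pck1, 4.76, with 3 samples of the table at 1 repeated value) and 7 lower of 15, with Fbp2 at -5.10. The pentose phosphate and serine branches had 5 higher and 4 lower of 13, with Phgdh, the first enzyme of serine synthesis, at 1.82 and Rpia at -1.47.

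The 2225L model was represented by 2 samples. Against 2208L 2 of the 39 genes were higher and 4 lower by limma, beside 15.6% and 17.3% of all genes, and the median difference was -0.33 over the 39 and -0.04 over all genes. This comparison shares its 2208L samples with the one above. Hk1 was -0.66 and -0.78 in 2225L and ran from -0.01 over 0.67 to 1.05 in 2208L (difference -1.37, SE 0.27, limma adjusted p 0.00163). It was the 1 gene called under each alternative tried here, including fits that keep a single sample of 2225L. Car12 was 3.42 and 3.29 in 2225L, above the highest sample of 2208L (1.79), with a difference of 2.65 (SE 0.72, limma adjusted p 0.0128). Car12 was thus lowest in 2151R and highest in 2225L. T11 (-0.26) lay between the 3day nt and the PBS samples of 2208L.

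Egln3 was -1.23 and -1.07 in 2225L, below all samples of 2208L (difference -1.80, SE 0.48, limma adjusted p 0.0114). Pfkfb4 was lower by a difference of -1.15, P4ha2 by a difference of -1.30, and Slc16a1 was higher by 0.59. The call of P4ha2 was lost in 10 of the 21 alternatives tried. The median difference over the 39 genes was -0.51 without replicate 1 of 2225L and -0.16 without replicate 2. Over all genes it was -0.02 and -0.07. In both fits the lone sample of 2225L is assumed to vary like the other groups, so counts of calls are not given. Aldoc (-0.30), Ldhb (-0.33), Higd1a (-0.50) and Pgk1 (-0.27) were not called between 2225L and 2208L.

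Against 2151R, 10 of the 39 were higher and 5 lower in 2225L, beside 22.8% and 25.8% of all genes. The median difference was -0.00019 over the 39 and -0.10 over all genes. This comparison shares samples with both comparisons above. Aldoc was 1.12 and 2.15 in 2225L (difference 6.03, SE 0.40, limma adjusted p 7.96e-08) and Ldhb was 0 and 2.16 (difference 3.42, SE 0.55, limma adjusted p 0.00021). Car12 differed by 5.55 (SE 0.79), Higd1a by 1.17, Gpi1 by 1.0, Pgk1 by 1.25, Tpi1 by 0.97, Pdk1 by 1.53, Gapdh by 0.62 and Slc16a1 by 0.43. Lower in 2225L were Hif1a (-1.43, SE 0.30, limma adjusted p 0.00165), Hk1 (-1.21), Slc2a3 (-1.68), P4ha1 (-1.35) and Pfkfb4 (-0.97). Aldoc, Car12, Hif1a, Higd1a, Hk1 and Ldhb were called under each alternative tried for this comparison. The other calls were each lost under some. Slc16a1 lost its call in 12 of 17 alternatives, Gapdh and P4ha1 in 9 each and Pdk1 in 7. Without replicate 2 of 2151R, 3 of the 39 genes were called lower, where 4246 of all genes were, compared with 4464 with it. Of 11 macrophage markers 10 were lower in 2225L and of 10 epithelial markers 9 were higher. Lower were also 3 of 8 neutrophil, 3 of 10 fibroblast, 2 of 10 adipocyte and 1 of 10 endothelial markers and 3 of 10 proliferation genes. Of 10 T cell markers 1 was higher and 1 lower, and no muscle or red cell marker was called. The part of these lists in the differences was not tested.

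In the other lists, 4 of 59 further HIF targets were higher and 17 lower in 2225L than in 2208L (median difference -0.40), with the chemokine receptor Cxcr4 at 4.01 and Trf at -3.78. Against 2151R 14 were higher and 14 lower, with the growth factor Tgfa at 5.75 and the chemokine Cxcl12 at -4.72. Hif3a, a HIF relative with inhibitory forms, was 3.07 and 3.55 in 2225L and 0 to 1.93 in 2208L (difference 2.40, SE 0.44, limma adjusted p 0.00105), while Arnt was lower by a difference of -1.13. Fbp1, the gluconeogenic enzyme fructose bisphosphatase, was higher in 2225L than in 2208L by 1.90 and than in 2151R by 5.05. Psat1, of serine synthesis, was higher than in 2208L by 1.55. Of 23 other glycolysis and transport genes 2 were higher and 5 lower than in 2208L, with the enolase relative Eno4 at 2.59 and the transporter Slc2a6 at -1.82. Than in 2151R 5 were higher and 6 lower, with Eno4 at 3.01 and Slc16a7 at -3.75. Of 18 regulators 1 was higher and 3 lower than in 2208L, and 5 were higher and 5 lower than in 2151R. In the lists of gluconeogenesis and of the pentose phosphate and serine branches, 4 of 15 and 4 of 13 were higher than in 2208L, with 1 and 0 lower, and 8 of 15 and 6 of 13 were higher than in 2151R, with 1 lower in each. In the pyruvate entry list 1 of 12 was higher and 1 lower than in 2208L (the kinase Pdk3, 0.77, and Dld, -0.60). Compared with 2151R 5 were higher and 0 lower, with the kinase Pdk2 at 2.41. Because the list mixes carriers with such kinases, these counts give no direction of pyruvate entry. Of 8 neutrophil and 11 macrophage markers 6 each were lower than in 2208L. Higher were 3 of 10 proliferation genes, 1 of 10 epithelial and 1 of 10 T cell markers, with no other marker called. The part of these lists in the differences was not tested.

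The 2 samples of 2225L can be set beside each other only as a description. Replicate 2 (ROSEN) lay at least 1 below replicate 1 (T-Vivo) in 8 of the 39 genes and at least 1 above it in 2, beside 15.5% and 18.6% of all genes. Adm was -0.42 in replicate 1 and -3.48 in replicate 2, Ndrg1 was -0.16 and -2.36, Ankrd37 was 0.07 and -2.14, and Slc16a3 was 0.18 and -2.11. Ldhb went the other way, at 0 and 2.16. A pair of samples allows no test of this difference.

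In 2151R the same genes set single samples apart. Replicate 2 held the highest of the 4 values in 29 of the 39 genes, where it did so for 21.5% of all genes, and replicate 3 held the lowest in 26, where it did so for 28.8%. Car9 was -1.40, -0.45, -2.28 and -0.60 in replicates 1 to 4, Bnip3 was -1.34, 0, -1.54 and -0.32, Ndrg1 was -1.61, -0.94, -2.35 and -1.14, and Adm was -0.72, 0.91, -0.85 and 0.62. Replicates 1 and 3 were thus low and replicates 2 and 4 high in each of these 4 genes, which were named after their values were seen. Replicate 3 is the sample with the high muscle markers, and in replicate 1 the muscle marker median was -2.52. Within 2208L the ROSEN sample, replicate 1, held the highest value in 15 genes (17.5% of all genes), and replicates 7 and 8 held the lowest in 14 and 11 (6.66% and 6.64%).

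T11 was a single sample, and its values are given as a description with no test. It lay above the range of 2151R in 23 of the 39 genes and below it in 4, beside 39.9% and 30.8% of all genes. Against 2208L it lay above in 10 and below in 8, beside 35.8% and 21.7%. In 7 genes, Slc2a3, Eno2, Slc16a3, Egln1, Car9, P4ha1 and P4ha2, T11 had the highest value of all 15 samples, as it did for 17.4% of all genes. Car9 stood at 2.61, while the next highest sample, replicate 5 of 2208L, was at 0.70. Egln3 was 1.26, within 2208L and above 2151R, and Pdk1 was 0.05, above all 4 samples of 2151R. In the isoenzymes Aldoc in T11 was -6.48, below 2151R, and Ldhb was -0.65, between 2151R and 2208L. Aldoa (-0.72) also lay below 2151R, while Ldha (-0.53) lay within its range.

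Of the 39 genes 6 were called in 0 of the 4 comparisons: Car9, Epas1, Pfkfb3, Pfkm, Pkm and Slc16a3. For Pkm, which encodes both the M1 and M2 forms of pyruvate kinase, all 15 values lay between -0.36 and 0.56. For Car9 they spread from -2.28 to 2.61.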

How the data were processed

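RNA of 15 mouse mammary tumours was measured by poly(A) RNA-seq (total RNA by column kit, TruSeq libraries, per the labels' protocols). The submitters' processing notes name STAR, Salmon and the build mm10, with no role or version. What the authors deposited are log2 values of 17271 genes, centred per gene on a median, per the table's own name. The offset, filters and scaling between samples are not given in the sources used here, and without counts depth is unknown.

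Samples were grouped by model and subset from their titles. All genes were fitted with limma 3.58.1 in R 4.3.3 (lmFit, eBayes without trend). Models shared 1 fit of 15 samples, PBS and 3day nt a fit of 7. P-values are two-sided and adjusted by Benjamini-Hochberg over 17271 genes, and the fit was tested on simulated data. The 39 genes, the 6 pathway lists and the 10 marker lists were chosen with earlier results of these data known. All 39 are described, and from each pathway list the called gene with the largest difference in each direction per comparison, except where stated. Alternatives changed scaling, weights, covariates, gene filter, samples and minimum difference. Promoters and gene positions are RefSeq's for GRCm38.p6, the assembly that mm10 names.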

Additional observations from a re-analysis of the deposited data

Results flagged for a closer look

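Values of the 39 genes were checked in 2151R, 2208L and 2208L PBS for a sample far from the others of its group. This was so in 5 of 117 groups of values, where about 1 in 20 (5.85) would be marked by chance. In 2151R, Slc16a1 was -0.14 in replicate 2 and -0.31 to -0.29 in the others. In 2208L, Pkm was 0.56 in replicate 1 (others -0.36 to 0.04), and Pfkfb3 was -1.14 in replicate 7 (others -0.16 to 0.70). Among PBS samples, Slc2a3 was -0.61 in replicate 3 (others 0.05 to 0.13), and Ldha was 0.10 in replicate 2 (others 0.26 to 0.28).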

How the results depend on the processing

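No paired analysis was possible because the sample titles link no sample of a group to a sample of the group compared with it. Of the single differences called, none reversed under any alternative run: 384 of 416 checks kept their call for 2151R against 2208L, 104 of 126 for 2225L against 2208L, 201 of 255 for 2225L against 2151R and 322 of 408 for PBS against 3day nt, and the rest lost it. Counts of the 39 genes called moved by more than 1.5 times as follows, and the cause was not tested.

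For 2151R against 2208L (2 higher, 14 lower), there were 4 higher with sample weights, 1 with a minimum difference of 1, 4 without the 3 samples with high muscle markers, 0 higher and 8 lower with samples titled NT, nt or PBS alone, and 7 higher and 9 lower against 3day nt alone. Leaving out each replicate gave 1 to 4 higher and 11 to 15 lower. Of all genes, 4508 were called higher and 3926 lower. The counts were 6049 and 5320 with sample weights and 2585 and 2566 with the minimum difference. They were 4072 and 3310 without the high-muscle samples, 3154 and 3281 with samples titled NT, nt or PBS alone. Against 3day nt alone they were 4423 and 4263. Leaving out each replicate gave 3544 to 4576 higher and 3441 to 4168 lower.

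For 2225L against 2208L (2 higher, 4 lower), there was 1 higher with quantile normalization, 0 higher and 1 lower with sample weights, 1 higher with the minimum difference, and 7 lower with the prefix of the library name (CP or ROSEN) as covariate. Leaving out each replicate of 2208L gave 2 higher and 3 to 5 lower. Fits with 1 sample of 2225L are among the 126 checks, but their counts are not given. Of all genes, 2693 were called higher and 2994 lower. The counts were 2411 and 2430 with quantile normalization, 958 and 1200 with sample weights, and 1827 and 2168 with the minimum difference. With the prefix as covariate they were 2567 and 2910. Leaving out each replicate of 2208L gave 2424 to 2831 higher and 2694 to 3217 lower.

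For 2225L against 2151R (10 higher, 5 lower), there were 5 higher and 2 lower both with sample weights and with that prefix as covariate, 2 lower with quantile normalization, 8 lower without the high-muscle samples and 8 lower with the 2 models alone. Leaving out each replicate of 2151R gave 7 to 10 higher and 3 to 5 lower. Fits with 1 sample of 2225L are among the 255 checks, but their counts are not given. Of all genes, 3934 were called higher and 4464 lower. The counts were 2529 and 2723 with sample weights, 3508 and 3845 with the prefix, and 3598 and 3487 with quantile normalization. Without the high-muscle samples they were 3746 and 4454, and with the 2 models alone 3695 and 4245. Leaving out each replicate of 2151R gave 3522 to 3606 higher and 3802 to 4246 lower.

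For PBS against 3day nt (23 higher, 1 lower), there were 12 higher and 0 lower with the minimum difference, and 4 lower with sample weights. With the muscle marker mean as covariate there were 3 and 0, where 122 of all genes were higher and 57 lower, compared with 3007 and 2857 without it. The fit without the high-muscle samples left 1 sample of 3day nt, and its count of calls is not given. That fit is still among the alternatives behind the 408 checks. Leaving out each replicate gave 12 to 23 higher and 0 to 3 lower. Of all genes, 1206 were higher and 1002 lower with the minimum difference, and 5938 and 5754 with sample weights. Leaving out each replicate gave 1362 to 3988 of all genes higher and 1017 to 3111 lower. Depth is unknown, so the precision of low values could not be judged.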
